A study of Mus musculus with 12 samples.

Results

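Club cell and airway secretory genes were followed across 12 Affymetrix mouse gene arrays of tumour material taken from the lung. The 8 genes were Scgb1a1, Cyp2f2, Scgb3a1, Scgb3a2, Bpifa1, Bpifb1, Reg3g and Muc5b. They were chosen by name from the platform annotation, with earlier results of these data known. Each was read from the 1 probe set that names it, out of 19937 genes measured this way. All 8 were measured and all 8 entered every test.

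Each array held RNA of Lewis lung carcinoma, a transplantable mouse tumour line, resected from the lungs of a female C57BL/6 host. Hosts were wild type or RelA/p65 deficient, where RelA/p65 is 1 of the proteins that make up the NF-kB transcription factor, and had breathed air or smoke. This gave 4 groups of 3 arrays: wild type air, wild type smoke, deficient air and deficient smoke. The labels give no age, dose or length of exposure, and no allele, promoter or cell type for the deficiency, while the series title speaks of myeloid cells. Whether replicates were separate animals is not said either. A p-value here therefore reflects the scatter of these arrays alone, which may be technical.

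Club cells are the secretory, dome-shaped cells of the small airways. They line the bronchioles together with ciliated cells, release secretoglobins and defence proteins into the airway lining fluid, detoxify inhaled chemicals with cytochrome P450 enzymes, and serve as progenitors when the airway is injured. Secretory cells of the larger airways add BPI fold proteins and the gel-forming mucin MUC5B, which carry trapped particles and microbes up to the throat.

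Levels are log2 expression after RMA, so a difference of 1 is a doubling of signal, and are compared between groups for a given gene and never between genes. Within groups, arrays correlated across genes at 0.990 to 0.998 (Pearson r), and array medians lay between 6.78 and 6.88. Rela itself was not lower in the arrays labelled deficient. It read 9.22 ± 0.06 in wild type air and 9.42 ± 0.04 in deficient air (SD, n = 3), a difference of 0.20 ± 0.07 (limma SE, adjusted p = 0.0285). In smoke it was 9.08 ± 0.10 in wild type and 9.31 ± 0.05 in deficient arrays. The labels do not say which part of the gene was deleted, and "deficient" below stands for "labelled RelA/p65 deficient". The tissue label names carcinoma cells and the source label lung. Of lung epithelial markers, Scgb1a1 read 13.45 ± 0.13 and Sftpc, of type II alveolar cells, 13.89 ± 0.06 in wild type air (SD, n = 3).

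Promoter sequences from RefSeq (GRCm38.p6) are shown for part of the members, because these genes moved together across the arrays. Those used were Cyp2f2, Scgb3a1, Bpifa1, Bpifb1 and Reg3g, which is 5 of the 8 genes. Scgb1a1, Scgb3a2 and Muc5b were left out of this selection, so the motif counts below do not cover them. The comparison with all promoter windows below is therefore a description of these 5 genes and not a test for the 8. Each line gives the 250 bases before the start site, 5′ to 3′ on the strand of the gene, and for Bpifb1 the more upstream of the 2 starts listed. Capitals mark matches, on either strand, to the letters TGTTTNC (a core of FOXA sites), CTCAAG (a core of NKX2-1 sites), TTGCNNAA (C/EBP) or TATAAA (the TATA box).
Cyp2f2 (chr7:27119705-27119954, plus strand): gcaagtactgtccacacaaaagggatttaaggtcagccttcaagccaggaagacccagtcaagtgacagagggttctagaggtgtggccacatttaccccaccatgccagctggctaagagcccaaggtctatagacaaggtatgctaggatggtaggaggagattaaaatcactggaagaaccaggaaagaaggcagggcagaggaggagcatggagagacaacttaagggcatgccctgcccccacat
Scgb3a1 (chr11:49663345-49663594, plus strand): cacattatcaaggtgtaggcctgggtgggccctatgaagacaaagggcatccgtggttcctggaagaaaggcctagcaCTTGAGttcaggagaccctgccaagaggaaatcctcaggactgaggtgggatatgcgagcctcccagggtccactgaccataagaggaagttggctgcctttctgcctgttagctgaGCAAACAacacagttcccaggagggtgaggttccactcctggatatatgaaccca
Bpifa1 (chr2:154142630-154142879, plus strand): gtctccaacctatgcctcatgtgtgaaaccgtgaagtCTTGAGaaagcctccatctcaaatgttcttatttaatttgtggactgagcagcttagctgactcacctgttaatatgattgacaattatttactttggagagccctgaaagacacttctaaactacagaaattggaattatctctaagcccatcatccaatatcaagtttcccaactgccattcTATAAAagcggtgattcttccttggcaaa
Bpifb1 (chr2:154190568-154190817, plus strand): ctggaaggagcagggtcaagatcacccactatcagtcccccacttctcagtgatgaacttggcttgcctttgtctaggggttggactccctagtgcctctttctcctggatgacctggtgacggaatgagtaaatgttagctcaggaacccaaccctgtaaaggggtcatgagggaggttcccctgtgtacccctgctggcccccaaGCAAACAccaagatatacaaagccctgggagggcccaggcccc
Reg3g (chr6:78468875-78469124, minus strand): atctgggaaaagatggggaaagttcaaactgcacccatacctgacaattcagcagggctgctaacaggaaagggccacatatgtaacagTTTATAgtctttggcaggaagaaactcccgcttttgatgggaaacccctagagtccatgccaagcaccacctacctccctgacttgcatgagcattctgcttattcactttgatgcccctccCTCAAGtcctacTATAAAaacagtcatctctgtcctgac

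Scgb3a1 held CTCAAG at -172 to -167 and TGTTTNC at -55 to -49 from the start site, counted from -1 at the base before it. Bpifa1 held CTCAAG at -213 to -208 and TATAAA at -29 to -24. Reg3g held CTCAAG at -39 to -34 and TATAAA at -161 to -156 and at -27 to -22, and Bpifb1 held TGTTTNC at -43 to -37. The Cyp2f2 window held none of the 4. Counting both Bpifb1 starts, CTCAAG lay in 3 of 6 windows against 13.3% of 32851 promoter windows of the same length, and TGTTTNC in 2 of 6 against 17.8%. TATAAA lay in 2 of 6 against 12.4%, and TTGCNNAA in 0 of 6 against 9.56%. Of the other motifs searched and not capitalised, an NF-kB form (GGG, any 3 bases, TTCC) lay at -78 to -69 of Bpifb1 and in 4.65% of all windows. Other NF-kB forms were not searched. The AP-1 letters TGANTCA lay at -155 to -149 of Bpifa1 (6.75% of all windows). The STAT letters TTCNNNGAA lay at -194 to -186 of Scgb3a1 and in the second Bpifb1 window (7.02%), and the AHR letters GCGTG in 0 of 6 (28.2%). No matches overlapped. Such matches are letters in a window and do not show binding.

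In wild type hosts smoke was compared with air, to ask how these genes differed with exposure. All 8 genes fell, by 1.23 to 5.35 on the log2 scale with a median of -3.67, against a median of 0.08 over all genes. Of all genes tested, 14% were called lower and 15% higher, 29% in all. The groups did not overlap for any of the 8 genes, and for 36.9% of all genes. Cyp2f2 had the lowest difference of all 19937 genes, Scgb1a1 ranked at 3, Reg3g at 5 and Muc5b at 469. In bulk tissue, a different mix of cells in the resected material and less RNA of these genes per cell cannot be told apart. Alveolar and endothelial markers fell in the same arrays, as given below.

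Cyp2f2, the cytochrome P450 of club cells that activates naphthalene and related inhaled aromatics, read 12.53, 12.60 and 12.77 in the wild type air arrays. It read 7.42, 7.25 and 7.18 in wild type smoke, and between 13.13 and 13.35 in the 6 deficient arrays. Wild type smoke alone stood low, and the 3 smoke arrays lay close together. It fell by 5.35 ± 0.08 (limma SE, 40.8-fold, adjusted p = 2.15e-13).

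Scgb1a1, the club cell secretory protein, read 13.35, 13.40 and 13.60 in wild type air and 9.23, 8.69 and 9.06 in wild type smoke. It fell by 4.46 ± 0.11 (21.9-fold, adjusted p = 9.28e-12). Its level in wild type smoke was the lowest of the 4 groups, and no array of another group came near it, yet at 8.99 ± 0.28 the smoke arrays also had the widest spread of this gene. The remaining lung secretoglobins fell as well. Scgb3a1, a small secreted protein of the larger airways, read 9.52, 9.75 and 9.83 in wild type air and 6.18, 6.42 and 6.56 in wild type smoke, and fell by 3.31 ± 0.10 (9.92-fold). Scgb3a2, found in club cells along the bronchi and bronchioles, read 9.33 to 9.62 in air and 5.92 to 6.19 in smoke, and fell by 3.48 ± 0.09 (11.2-fold).

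The defence proteins followed. Reg3g, a C-type lectin that kills Gram-positive bacteria, read 8.76, 8.89 and 9.20 in wild type air and 4.70, 4.48 and 4.65 in wild type smoke, and fell by 4.34 ± 0.10 (20.3-fold, adjusted p = 3.88e-12). Bpifa1, also called SPLUNC1, a lipid-binding protein that restrains sodium uptake and bacterial growth, read 8.75, 8.84 and 9.18 in air and 5.68, 5.43 and 5.83 in smoke. It fell by 3.27 ± 0.11 (9.66-fold). Bpifb1, its larger relative in airway fluid, fell by 3.87 ± 0.09 (14.6-fold), from 9.39 to 9.62 in air down to 5.53 to 5.71 in smoke. All 3 wild type smoke arrays lay under 6 for Bpifa1, Bpifb1 and Reg3g, as did 2 of 3 for Scgb3a2. The table gives no detection call, so whether these low readings lie above background was not tested.

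Muc5b, the mucin needed for mucus clearance in the airways, moved least. It read 7.45, 7.57 and 7.76 in wild type air and 6.14, 6.46 and 6.49 in wild type smoke, and fell by 1.23 ± 0.10 (2.35-fold, adjusted p = 1.06e-06). Its 95% interval, -1.46 to -1.01, lay apart from those of the 7 other genes, of which the nearest was Bpifa1 at -3.52 to -3.02. Whether the Muc5b readings in smoke lie above background was not tested, and a reading at background would limit the size of the fall.

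**Figure D1:**
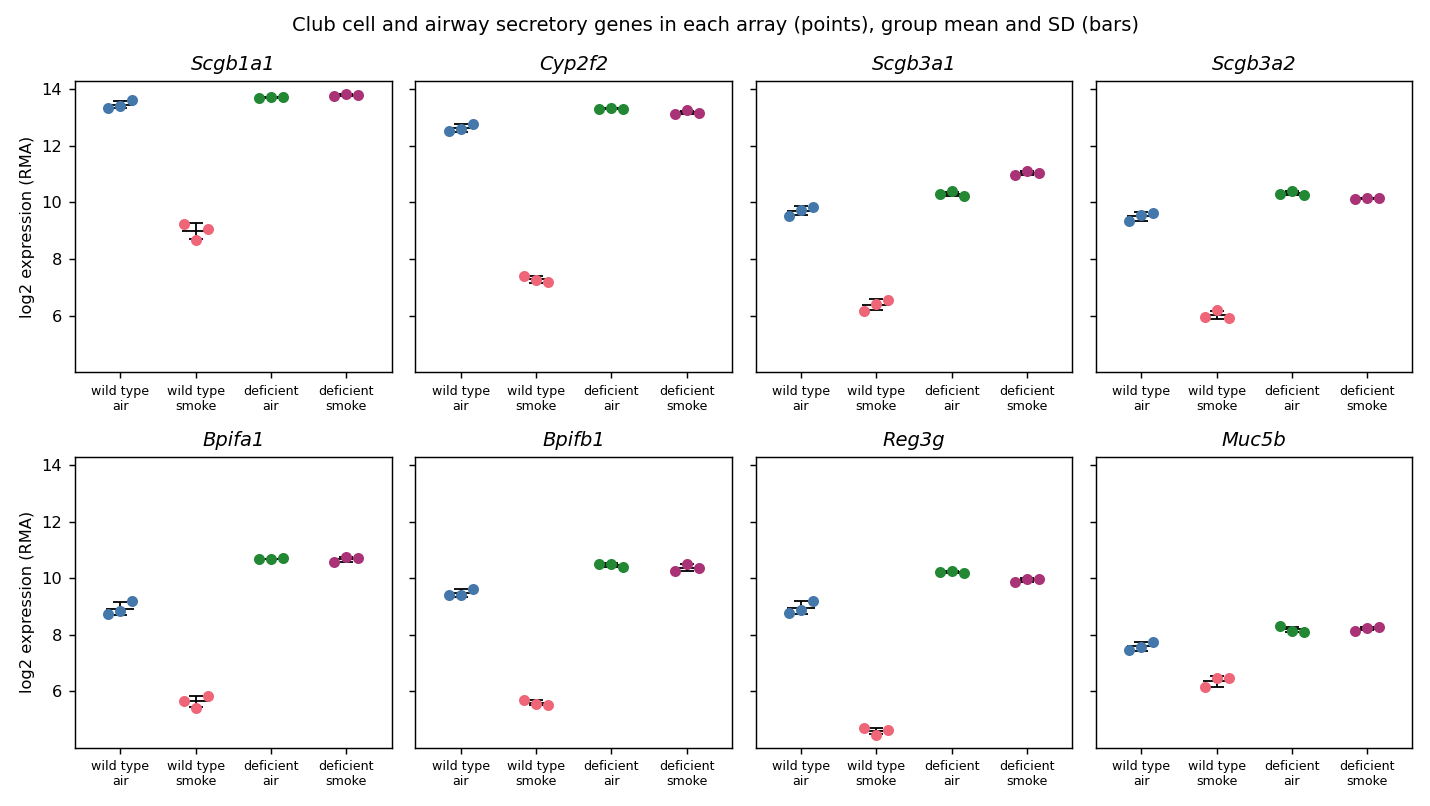
Log2 expression of the 8 genes in each array (points, 3 per group), with the group mean and SD (bars), for wild type and deficient hosts in air and smoke. In every panel the 3 wild type smoke arrays lie lowest, from 8.69 to 9.23 for Scgb1a1 and from 4.48 to 4.70 for Reg3g.

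In deficient hosts the same exposure left most of these genes within a narrow range. Only Scgb3a1 passed the test: 1 of 8 was called higher and 0 lower, where 0.692% of all genes were called higher and 1.72% lower, 2.41% in all. The median of the 8 differences was -0.06, and that of all genes rounded to 0.

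Scgb3a1 read 10.31, 10.39 and 10.22 in deficient air and 10.97, 11.10 and 11.03 in deficient smoke. Every smoke array lay above every air array, and the rise was 0.73 ± 0.10 (1.66-fold, adjusted p = 0.00128). It ranked at 23 of all genes from the top of this comparison and is the same gene that fell by 3.31 with smoke in wild type hosts. Its relative Scgb3a2 went the other way without passing, at -0.19 ± 0.09 (adjusted p = 0.46), with 10.28 to 10.41 in air and 10.11 to 10.16 in smoke.

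Markers of blood-derived cells moved in the arrays where Scgb3a1 rose. Of 11 neutrophil markers 4 rose with smoke in deficient hosts and 0 fell (median 0.29), namely the chemokine receptor Cxcr2 at 0.66 ± 0.11, the calcium-binding S100a9 and S100a8, and Retnlg. The list mean was 6.86 to 6.97 in deficient air arrays and 7.13 to 7.21 in deficient smoke. Of 11 macrophage and monocyte markers 2 fell, Adgre1 by 0.57 ± 0.12 and Csf1r, the receptor for CSF-1, by 0.56 ± 0.06, and 1 fell when any of the 6 deficient arrays was left out. That list's mean overlapped, at 9.35 to 9.43 in air and 9.20 to 9.36 in smoke. Of type II alveolar, endothelial and neuroendocrine markers 1 each rose, and 1 ciliated marker fell. The part of these markers in the Scgb3a1 result was not tested.

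Reg3g had the lowest difference of the 8, -0.29 ± 0.10 (95% interval -0.51 to -0.07, adjusted p = 0.23), and read 10.21, 10.27 and 10.19 in deficient air against 9.86, 9.97 and 9.98 in deficient smoke. Its groups did not overlap, as was so for 5 of the 8 genes and 22.7% of all genes. With array weights Reg3g passed at -0.28 (adjusted p = 0.0343), and with the 6 deficient arrays fitted alone at -0.29 (adjusted p = 0.018). Over all alternatives its difference ranged from -0.31 to -0.25. Cyp2f2 differed by -0.13 (95% interval -0.31 to 0.04) and Bpifb1 by -0.09 (-0.28 to 0.10). Scgb1a1 differed by 0.07 (-0.17 to 0.32), Bpifa1 by -0.02 (-0.27 to 0.23) and Muc5b by 0.03 (-0.20 to 0.25). These intervals leave out a change of the size seen in wild type hosts for each of these 5 genes.

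Host genotype was compared in air next, to ask how the deficient arrays differed without smoke. Of the 8 genes 7 were higher in deficient arrays and 0 lower, with a median difference of 0.76 against -0.03 over all genes. Of all genes 20.5% were called higher and 18% lower, 38.5% in all. The groups did not overlap for any of the 8, nor for 51.9% of all genes.

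Among the members, the defence genes Bpifa1, Reg3g and Bpifb1 showed the largest differences. Other epithelial defence genes, listed apart from the members, had 7 of 29 higher and 1 lower in deficient air, with a median of -0.03. Bpifa1 read 8.75 to 9.18 in wild type air and 10.67, 10.68 and 10.70 in deficient air, higher by 1.76 ± 0.11 (3.39-fold, adjusted p = 1.59e-07). Reg3g was higher by 1.28 ± 0.10 (2.42-fold) and Bpifb1 by 0.99 ± 0.09 (1.99-fold). The deficient air arrays lay close together for all of them, with an SD of 0.01 for Bpifa1, 0.04 for Reg3g and 0.06 for Bpifb1, against 0.23, 0.23 and 0.13 in wild type air. Differences were smaller for Scgb3a2 at 0.83 ± 0.09, Cyp2f2 at 0.68 ± 0.08, Scgb3a1 at 0.61 ± 0.10 and Muc5b at 0.59 ± 0.10 (adjusted p = 4.48e-04).

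Scgb1a1 did not pass, at 0.26 ± 0.11 (95% interval 0.02 to 0.51, adjusted p = 0.0873). It read 13.69, 13.72 and 13.72 in deficient air, above each of the wild type air arrays. The highest value in any array was 14.39, and whether differences shrink near the top of the range was not tested. It did pass in 5 alternatives, with an adjusted p of 0.0148 using array weights and 0.018 with these 6 arrays alone. The others left out wild type air replicate 3 (difference 0.34, adjusted p = 0.0499), wild type smoke replicate 1 (adjusted p = 0.0315) or wild type smoke replicate 2 (adjusted p = 0.0154). Over all alternatives the difference ran from 0.14 to 0.34.

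Wild type air replicate 3 read highest of its group for all 8 genes and replicate 1 lowest for all 8, by 0.11 to 0.26 above and 0.08 to 0.19 below the group mean in size. Replicate 3 was the highest array for 31% of all genes, and replicate 1 the lowest for 27.3%. Type II and type I alveolar, ciliated and endothelial lists were also highest in that array. In deficient smoke, replicate 1 read lowest for all 8 genes, while it was lowest for 37.1% of all genes. In wild type smoke no array was lowest for more than 3 of the 8.

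Under smoke the genotypes stood far apart. All 8 genes were higher in deficient than in wild type arrays, by a median of 4.78 (-0.14 over all genes), where 22.7% of all genes were called higher and 37% lower, 59.6% in all, and the groups of 61.3% did not overlap. Cyp2f2 was higher by 5.90 ± 0.08 (59.8-fold), the largest difference of all genes. Reg3g followed at 5.33 ± 0.10 (40.2-fold), Bpifa1 at 5.01 ± 0.11 (32.3-fold), Scgb1a1 at 4.79 ± 0.11 (27.7-fold) and Bpifb1 at 4.77 ± 0.09 (27.2-fold). Scgb3a1 was higher by 4.65 ± 0.10 (25.1-fold), Scgb3a2 by 4.12 ± 0.09 (17.3-fold) and Muc5b by 1.85 ± 0.10 (3.61-fold). This comparison shares its arrays with those above, so it is no separate evidence.

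The interaction tests whether the smoke difference itself differed between genotypes. It passed for all 8 genes, in the direction of a less negative smoke difference in deficient hosts, with a median of 3.91 and a range of 1.26 for Muc5b to 5.22 for Cyp2f2. Of all genes 8.89% were called in that direction and 5.7% in the other, 14.6% in all. The order of group means was deficient, wild type air and wild type smoke for each gene, and the 2 deficient groups differed beyond the test for Scgb3a1 alone.

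**Figure D2:**
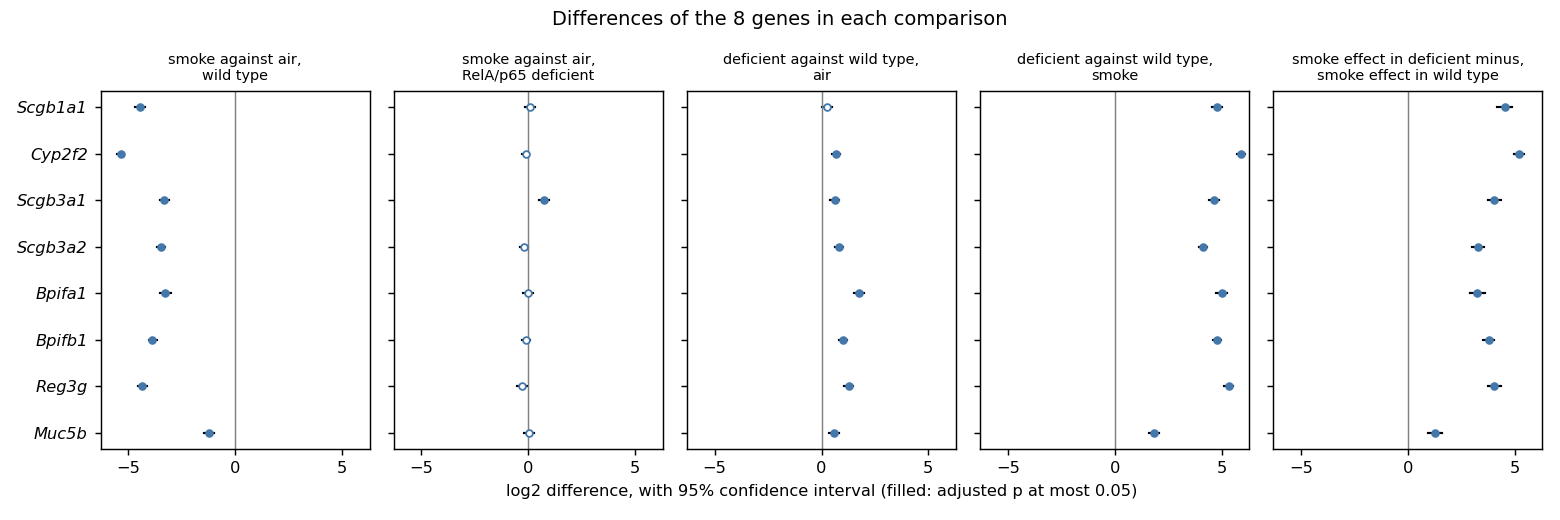
Log2 differences of the 8 genes in 4 comparisons and the interaction (points, with 95% confidence intervals from limma; filled where the adjusted p is at most 0.05). All 8 lie left of 0 for smoke in wild type hosts, while in deficient hosts only Scgb3a1, at 0.73, is filled.

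Most measured relatives of these genes were not called lower with smoke in wild type hosts. Many read low already in wild type air, where a fall could be missed. The other Reg genes read 4.13 to 5.36 there and the other BPI fold genes 4.15 to 6.60. Whether such readings lie above background was not tested. The families were collected by symbol after the values of the 8 genes had been seen, and are given as counts. Of all genes, 14% were called lower with smoke in wild type hosts and 15% higher, 29% in all. Of 8 other secretoglobins measured, 1 fell with smoke in wild type hosts and 1 rose, with a median of 0.12. The one that fell was Scgb1c1, a secretoglobin of nasal and airway glands, at -1.52 ± 0.09, and it was also higher in deficient than wild type air, by 0.96 ± 0.09. Scgb1c1 fell with smoke in deficient hosts too, by 0.60, from 8.95 ± 0.08 to 8.35 ± 0.04. None of the 8 genes was called lower there in the unweighted fit of all 12 arrays, while Reg3g was with array weights.

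Of 12 other BPI fold genes none fell and 3 rose, between -0.09 and 0.39, although 11 of them lie on chromosome 2 like Bpifa1 and Bpifb1. Bpifa5, the gene between those 2 in the GRCm38.p6 gene order, rose by 0.39 ± 0.13 (adjusted p = 0.0418, groups overlapping) where these neighbours fell by 3.27 and 3.87. Of 6 other Reg genes none fell and 2 rose, and Reg3b, a close relative of Reg3g, differed by 0.11 ± 0.09 at a level of 4.13 ± 0.01 in wild type air and 4.24 ± 0.12 in wild type smoke. Their median was 0.18.

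Among 11 other mucins 2 fell. Muc1, a membrane mucin found on alveolar as well as airway epithelium, fell by 2.79 ± 0.13, and Muc4, a membrane mucin of airway epithelium, by 0.70 ± 0.09. Muc5ac, the mucin of goblet cells and the gene next to Muc5b, differed by 0.13 ± 0.15 (adjusted p = 0.526), with 6.13 ± 0.16 in wild type air and 6.26 ± 0.39 in wild type smoke. Of 42 other genes of cytochrome P450 family 2, 6 fell and 2 rose, where 14% of all genes were called lower and 15% higher. Cyp2b10, an enzyme induced by many drugs, fell by 3.48 ± 0.13 and Cyp2s1 by 2.43 ± 0.15. Taking the nearest 4 protein-coding genes on each side of every member, 49 non-members were measured, of which 2 fell and 6 rose, with differences from -0.27 to 0.39. Scaling moved these small counts: with median centring 3 other secretoglobins, 5 BPI fold genes, 3 Reg genes, 3 mucins, 9 Cyp2 genes and 17 neighbours rose, and 0 neighbours fell. With quantile normalization 0 secretoglobins and 1 Reg gene rose, while 1 BPI fold gene and 3 mucins fell.

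**Figure D3:**
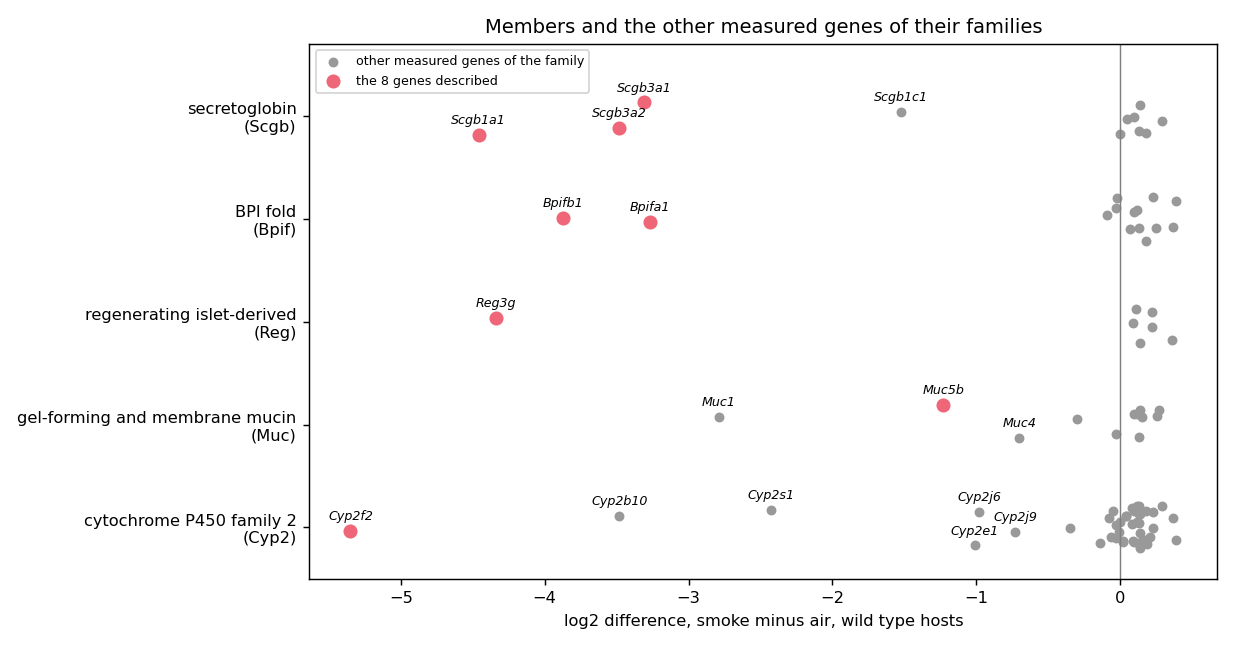
Log2 differences, smoke minus air in wild type hosts, of the 8 genes (red) and of the other measured genes of their families (grey, spread vertically only to separate them; named where below -0.6). The 8 genes lie between -5.35 and -1.23 and most relatives near 0, apart from Scgb1c1, Muc1, Muc4 and several Cyp2 genes.

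Other airway secretory genes, from a list of 40 of which 37 were measured, shared the pattern in part. With smoke in wild type hosts 30 fell and 4 rose, with a median of -1.68, where 14% of all genes were called lower and 15% higher. The carboxylesterase Ces1d, the flavin monooxygenase Fmo2 and the aldehyde dehydrogenases Aldh1a7 and Aldh1a1 fell by 4.53, 4.36, 4.29 and 4.21. Those that rose were Slpi, a secreted protease inhibitor, at 0.44 ± 0.05, the keratin Krt18 at 0.43 ± 0.08, Itln1 at 0.31 ± 0.10 and Dmbt1 at 0.30 ± 0.10. With quantile normalization 2 of the list rose in place of 4. In deficient hosts 2 rose with smoke and 0 fell. These were Aldh3a1, an aldehyde dehydrogenase induced through the aryl hydrocarbon receptor, at 1.5 ± 0.13, and Slpi at 0.28 ± 0.05. In air 31 of 37 were higher in deficient arrays and 0 lower (median 0.84), led by the siderophore-binding protein Lcn2 at 2.18 ± 0.12. With median centring 1 of the list was lower.

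Goblet and mucus genes went several ways, with 5 of 19 lower and 2 higher with smoke in wild type hosts and a median of -0.01 (4 higher with median centring, and 4 higher and 6 lower with quantile normalization). In that comparison 14% of all genes were called lower and 15% higher. In deficient hosts 3 fell with smoke, namely Clca1, a secreted goblet cell protein, at -0.90 ± 0.09, the trefoil peptide Tff2 at -0.73 ± 0.07 and the membrane mucin Muc16 at -0.36 ± 0.08, while Muc4 rose by 0.52 ± 0.09. Scgb3a1 and Muc4 were thus higher and Clca1 and Tff2 lower with smoke in the same arrays. Clca1 also fell in wild type hosts, by 0.54 ± 0.09. Epithelial defence genes outside the 8 had 8 of 29 higher and 3 lower with smoke in wild type hosts (14 higher with median centring). The alarmin S100a8, which neutrophils carry, rose by 0.67 ± 0.08, and the lysozyme Lyz1 fell by 1.96 ± 0.09.

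Transcription factors and Notch genes tied to airway secretory cells had 18 of 24 lower and 1 higher with smoke in wild type hosts, with a median of -0.41. The largest fall in this list was that of Tcf21, a factor of lung mesenchyme rather than of airway epithelium, at -2.40 ± 0.09. Nkx2-1, the lung epithelial identity factor, read 7.96 ± 0.14 in wild type air and 7.22 ± 0.17 in wild type smoke, and fell by 0.75 ± 0.09. Sox2, a factor of conducting airway epithelium, fell by 1.62 ± 0.18, with an SD of 0.47 in wild type smoke. The Notch target Hey1 fell by 0.98 ± 0.08 and Foxa2, a partner of Nkx2-1 in lung epithelium, by 0.35 ± 0.07. The 1 that rose was Cebpb, at 0.27 ± 0.07. In deficient air 23 of 24 were higher than in wild type air (22 higher and 1 lower with median centring), Tcf21 by 1.61 ± 0.09, Hey1 by 1.00 ± 0.08, Nkx2-1 by 0.76 ± 0.09 and Foxa2 by 0.45 ± 0.07. In deficient hosts with smoke 1 rose, Notch1, at 0.31 ± 0.07.

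Markers of other lung cells moved in the same arrays, in a comparison where 14% of all genes were called lower and 15% higher. In wild type hosts with smoke 14 of 14 type II alveolar markers fell (median -2.03), as did 12 of 13 type I markers (median -1.90) and 13 of 14 endothelial markers (median -0.84). The mean of the type II list was 10.83 to 11.04 in wild type air arrays and 8.83 to 9.0 in wild type smoke, and the mean of the 8 genes 9.88 to 10.20 and 6.31 to 6.40. Ager, of type I cells, fell by 2.95 ± 0.07, and the pan-epithelial gene Epcam by 2.23 ± 0.09. Of 20 ciliated cell markers 13 fell and 1 rose (median -0.63), while Foxj1, the ciliated cell master regulator, differed by -0.27 ± 0.14 (adjusted p = 0.16). Its SD was 0.39 in wild type smoke. The largest falls of the ciliated list were those of Tppp3, at -1.85 ± 0.08, and Rsph4a, at -1.33 ± 0.10. The 1 that rose was Mcidas, at 0.38 ± 0.11.

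Basal cell markers had 2 of 8 higher and 1 lower, and Krt5, their defining keratin, differed by 0.24 ± 0.13 (adjusted p = 0.181). Macrophage and monocyte markers had 11 of 11 higher (median 1.11), and proliferation genes 5 of 11 higher and 0 lower (median 0.41; 8 higher with median centring). Neutrophil markers had 7 of 11 higher (10 with median centring) and 1 lower, the latter being Ltf, also a glandular airway protein. In deficient against wild type air the median of the 8 genes was 0.76, and 20.5% of all genes were called higher and 18% lower. Type II markers had 13 of 14 higher (median 1.0) and type I 13 of 13 (median 0.86). Ciliated markers had 16 of 20 higher with 1 lower (median 0.55), and endothelial 14 of 14 higher (median 0.97). Macrophage markers had 10 of 11 higher (median 0.49), neutrophil markers 7 of 11 higher and 0 lower (median 0.57), and proliferation genes 11 of 11 lower (median -1.11). The part of these other markers in the results for the 8 genes was not tested.

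**Figure D4:**
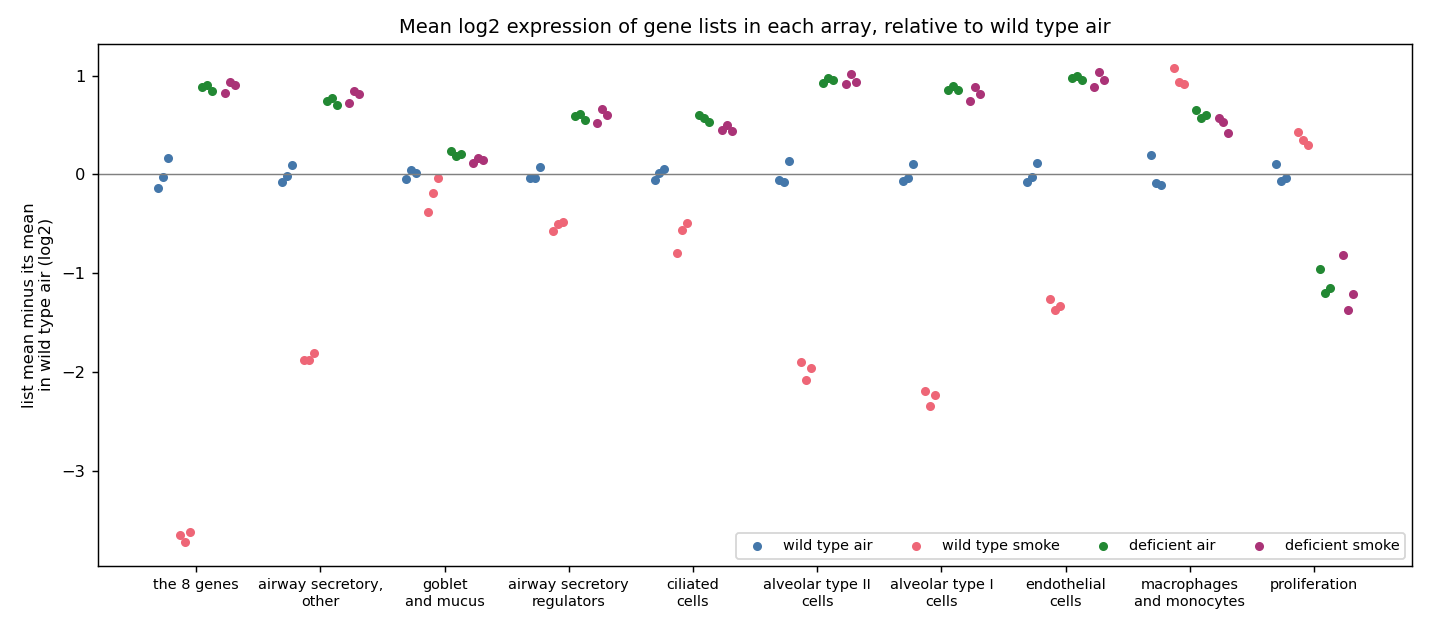
Mean log2 expression of the 8 genes and of 9 gene lists in each array, minus the mean of that list in wild type air (points, 3 per group; colours are the groups). The 8 genes lie lowest in wild type smoke, together with alveolar and endothelial lists, while macrophage and proliferation lists lie above 0 there.

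The genes whose level followed a member most closely over the 12 arrays were found by Pearson r among 2540 other genes whose group means spanned at least 1. The 3 nearest to each member had r between 0.9949 and 0.9996, values that rest on the 3 wild type smoke arrays standing apart from the other 9 and are given as a description. Few of them were airway genes. Sftpc, the type II cell surfactant protein, was nearest to Cyp2f2 and among the 3 nearest to Scgb1a1, beside Pcdh18 and Elovl7. Ager was among the 3 of Bpifb1, and Clic5, of type I cells, was nearest to Reg3g, followed by Hp and Gpc3. Bpifa1 was followed by Atp2a3, Chil1 and Spock2, and Scgb3a2 by the complement gene C7, the alcohol dehydrogenase Adh1 and the cardiac actin Actc1.

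Scgb3a1 stood with Scn3b, Pdzd2 and Abi3bp, which also read higher in deficient smoke than in deficient air (9.22 against 8.87 for Scn3b, 10.40 against 10.08 for Pdzd2 and 8.93 against 8.58 for Abi3bp). Muc5b stood with Pcx, Adcy8 and Raver2. The measured span of the nearest genes differed from that of the member: Sftpc group means ran from 12.31 to 14.12, and those of Cyp2f2 from 7.28 to 13.32.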

How the data were processed

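RNA of 12 samples was hybridised to Affymetrix mouse gene arrays, and the deposited table gives log2 expression values made by the authors in Affymetrix Expression Console with RMA, per the submitters' processing notes. Genome build and versions are not given in the sources used here. The log2 values were used as deposited. RMA normalizes arrays by quantiles, which assumes that their distributions are alike. Of 34760 probe sets 21640 named 1 gene and were kept, with the highest-mean probe set per gene (19937 genes). Probe sets with several genes (1321) or none listed (11799) were left out. The table gives no detection calls, and the number of arrays limits the precision.

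Means of 4 groups were fitted in limma 3.58.1 (R 4.3.3; residual df 8, prior df 4.83) to all 12 arrays. All tests were 2-sided. The Benjamini-Hochberg adjustment ran over every gene, with a limit of 0.05. The fit was tested on simulated data. Every adjusted p in the text comes from limma. The members and lists were chosen with earlier results of these data known. Families by symbol, neighbouring genes and motifs were added after the values were seen. Named genes were all 8 members, Rela, 12 defining markers (11 of them measured), up to 4 genes per list, comparison and direction with the largest difference among those past the test, and the 3 nearest by r to each member. Relatives named outside this rule (Scgb1c1, Bpifa5, Reg3b and Cyp2s1) were chosen after their values were seen. The alternatives tried were a filter on dim genes (kept if 3 or more arrays reached a log2 of 6), the mean of probe sets, an intensity trend, array weights, quantile normalization, median centring, a replicate block, only the groups compared, and leaving out each array.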

Additional observations from a re-analysis of the deposited data

Results flagged for a closer look

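The smoke difference differed between genotypes for all 8 genes, by the interaction test in limma with Benjamini-Hochberg adjustment over 19937 genes. On the log2 scale it was less negative in deficient hosts by 4.53 ± 0.16 for Scgb1a1 (adjusted p = 6.47e-10) and by 5.22 ± 0.11 for Cyp2f2 (adjusted p = 1.24e-11). It differed by 4.04 for Scgb3a1 and 3.29 for Scgb3a2, by 3.25 for Bpifa1 and 3.78 for Bpifb1, and by 4.05 for Reg3g. For Muc5b it was 1.26 ± 0.15 (adjusted p = 4.29e-05).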

How the results depend on the processing

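The counts of members past the test were the same under all alternatives in wild type hosts (8), under smoke between genotypes (8) and for the interaction (8). In deficient hosts with smoke the count was 1, and 2 with array weights or with the compared groups alone, where Reg3g passed. Scgb1a1 in air passed in the 5 alternatives given above, making 8 of 8. No called difference changed direction. Of the uncalled ones, Bpifa1 with smoke in deficient hosts went from -0.02 to 0.00 with median centring and with quantile normalization and to 0.03 without deficient smoke replicate 1 (range -0.06 to 0.03 leaving out single arrays). Muc5b there went from 0.03 to -0.01 without deficient air replicate 3 (range -0.01 to 0.09). Labels share replicate numbers, and whether these pair the arrays is not said. Deviations from group means correlated from -0.36 to 0.37 over 18 same-number pairs, with 7 over 0.1. In 8 of the 18 the array correlated best with its own number in the other group, so pairing was not settled. With the replicate block the counts were 8, 1, 7, 8 and 8, as without it.

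Median centring moved the median difference of all genes from -0.14 to -0.28 for genotype under smoke, and the share of called genes that were higher from 51.8% to 77.1% (smoke, wild type), 53.2% to 39.6% (genotype, air), 38% to 22.9% (genotype, smoke) and 60.9% to 41.4% (interaction). Over all genes, the 5778 called for smoke in wild type hosts became 10211 with array weights, 9852 with median centring, 3454 with the compared groups alone, 8824 without wild type smoke replicate 1 and 3695 without wild type air replicate 3. The 481 in deficient hosts became 1368 with array weights, 1018 with the compared groups alone and 261 to 320 without any 1 of the 6 arrays compared. The 2909 of the interaction became 6662 with array weights, and 4969 when leaving out wild type smoke replicate 1. The causes were not tested. Signals under a log2 of 6 have unknown distance from background.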
